A study of Mus musculus with 6 samples.

Results

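The levels of 10 genes of mitosis and cell proliferation were compared in the aorta of young mice with and without microRNA-26b. They are Mki67, Top2a, Ccna2, Ccnb1, Ccnb2, Cdk1, Bub1, Cenpe, Birc5 and Aurkb, taken by gene symbol from the deposited read-count table, in which all 10 members are among 55341 gene rows. The table held 6 RNA-seq libraries of aortic vessels (aortic arch and thoracic aorta, per the study's methods) from mice of 8 weeks of age on a chow diet. Of the libraries, 3 (KO1, KO2 and KO3) came from miRNA-26b-/- mice and 3 (WT1, WT2 and WT3) from miRNA-26b+/+ mice, which the labels call naive. The KO line was made from 129/Sv embryonic stem cells injected into C57BL/6NCrl embryos, and the allele was deleted by tamoxifen in mice carrying CreERT2, which was then bred out. The labels give C57BL/6NCrl for both groups. The study describes a mixed background of 129/Sv and C57BL/6 for the strains and elsewhere C57BL/6 for all mice. No source used here says whether the WT mice had received tamoxifen or were littermates. Numbers within a genotype only name libraries and pair none of them.

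These genes act in a fixed order in dividing cells. Cyclin A2 rises in S phase, the B cyclins follow in G2, and each activates the kinase CDK1, which drives entry into mitosis. Topoisomerase II alpha untangles the copied DNA and Ki-67, the protein of Mki67, coats the condensed chromosomes, while BUB1 and CENP-E work at the kinetochore, where chromosomes attach to the spindle. Survivin (Birc5) and Aurora B (Aurkb) belong to the chromosomal passenger complex, which corrects attachments and helps the cell divide in the end. The genes are switched on together in cycling cells, largely by E2F factors and by the MuvB complex with B-MYB and FOXM1, and are silent in resting cells. Most cells of an adult artery wall are at rest.

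The promoters of the members were searched for the short elements known for this shared timing. The choice of genes did not use the elements, but they are known from genes of this kind. Finding them is therefore a description and no independent support for the grouping. The cell cycle genes homology region, or CHR, is the site that MuvB complexes bind, and CCAAT boxes near it are bound by NF-Y. RefSeq promoters on GRCm38.p6, running from 250 bases before to 50 after the gene start, matched 8 of the 10 members. A CHR, searched on both strands as TTTGAA or TTCGAA (the latter reads the same on either strand), was found in 5 of these 8 promoters and in 19.2% of 32851 promoters of the same length. CCAAT was found in 7 of 8, against 37.4% of all promoters, and 6 of 8 held it at least 2 times, against 11.7%. The E2F-type letters TTTCGCGC or TTTGGCGC were found in 1 of 8, the Cdk1 promoter, and in 0.813% of all promoters. Such matches are a description of letters, not of bound sites. One CHR per promoter, the nearest to the gene start among those read on the gene's strand, is given with the flanking bases in lower case and the CHR in capitals.
Mki67, chr7:135716461-135716488, minus strand: cgccgttttggTTTGAAtcgggcgggct
Top2a, chr11:99024293-99024320, minus strand: gcggtcttttgTTCGAAtaaaagacgat
Cdk1, chr10:69352911-69352938, minus strand: accgcggcgagTTTGAAactgctggcac
Ccnb2, chr9:70421534-70421561, minus strand: gcggcgcggtaTTTGAAtcgcggaccgg
Bub1, chr2:127831829-127831856, minus strand: tgcgcggggaaTTCGAAtcgccggcggc

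The KO mice lack both mature strands, miRNA-26b-5p and miRNA-26b-3p, and only sites of miRNA-26b-5p were searched here. This strand pairs with its targets mainly through its seed, bases 2 to 8, given in capitals. It lies on chromosome 1 at 74394324 to 74394344 on the plus strand of GRCm38.p6.
mmu-miR-26b-5p: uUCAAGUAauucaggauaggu
The letters TACTTGA, which pair with all 7 bases of that seed, were looked for in the longest annotated 3' UTR of each gene in GENCODE M21. None of the 10 members held them, against 1586 of 13541 tested genes with a 3' UTR (11.7%). The UTRs of the members were shorter, with a median of 557 bases against 1378, and ranged from 121 bases in Bub1 to 3352 in Cdk1.

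The libraries held 25706728 to 33345037 counts, with 17744 to 19287 genes detected. The row of the microRNA hairpin itself held 0 counts in 5 libraries and 20 in WT2, and libraries of this kind do not capture mature microRNAs, so the counts do not check the genotype. By the labels the cells are endothelial. The summed level of 6 smooth muscle markers was 30933 to 40339 CPM (counts scaled to a library total of 1000000), against 387 to 1564 CPM for 6 endothelial markers, so the defining markers of smooth muscle were far above those of endothelium. In bulk tissue, fewer cycling cells and less RNA per cycling cell cannot be told apart. The sum of 6 Schwann cell markers was 122 to 202 CPM in KO and 62.5 to 91.8 CPM in WT, and KO2 and WT2 were highest for 7 sympathetic neuron markers, at 338 and 57.2 CPM against 16.8 to 28.5 CPM in the other libraries.

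All members were expressed at a low level. As CPM per kilobase of exon (RPKM), the scale on which genes can be compared, the mean over 6 libraries was highest for Ccna2 (1.59), followed by Top2a (0.451), Aurkb (0.436), Mki67 (0.425), Ccnb2 (0.378), Ccnb1 (0.292), Cdk1 (0.276), Birc5 (0.178), Cenpe (0.154) and Bub1 (0.140). Of the 10 members, 9 lay below the 10th percentile of mean RPKM over the 16017 genes tested, whose median was 4.40, and Ccna2 lay at the 26.5th percentile. The libraries' values of every pair of neighbours in this order overlapped, Ccna2 (lowest library 0.485 RPKM) and Top2a (highest library 0.676 RPKM) included. The test required a sum of at least 2 counts and over 1 CPM in at least 2 libraries, which 8 of the 10 members passed; Ccnb2 and Bub1 did not.

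**Figure D1:**
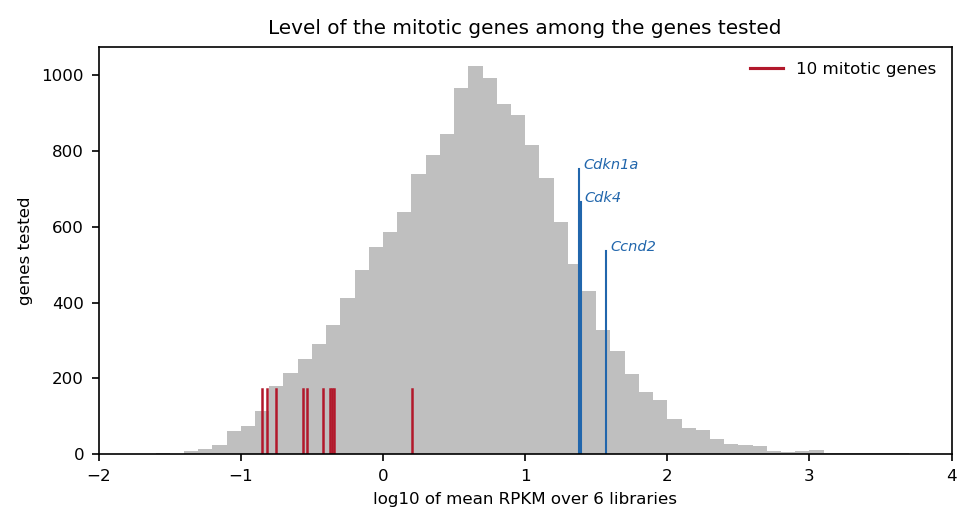
Distribution of mean RPKM over the 6 libraries (x axis, log10) for the 16017 genes tested (y axis, number of genes). Red lines mark the 10 mitotic genes. Blue lines mark Ccnd2 and Cdk4, of the G1 cyclins and kinases, and Cdkn1a, a CDK inhibitor. The mitotic genes lie in the lower tail, Ccna2 alone above 1 RPKM, while the 3 blue genes lie above 20 RPKM.

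Mki67 was the member that differed most between genotypes by its p. It lies on chromosome 7 at 135689784 to 135716361 (GENCODE M21, GRCm38), with 14 exons. It held 79, 125 and 379 counts in KO1, KO2 and KO3 and 16, 64 and 74 in WT1, WT2 and WT3, or 3.07, 3.75 and 13.6 CPM against 0.530, 2.30 and 2.40 CPM. Every KO library lay above every WT library, and KO3 stood far above the other 5. The mean was 6.80 ± 5.88 CPM in KO and 1.74 ± 1.05 CPM in WT (SD, n = 3 each). The log2 fold change was 1.94 (SE 0.78, 95% interval 0.27 to 3.60), with an unadjusted p of 0.0254 and an adjusted p of 0.736 (edgeR's quasi-likelihood test with Benjamini-Hochberg adjustment over all genes tested). Without KO3 it was 0.98 (unadjusted p of 0.242, adjusted p = 0.725, edgeR), and without WT1, the lowest library, 1.48 (unadjusted p of 0.114, adjusted p = 0.876, edgeR). The exact permutation test on CPM gave p = 0.1, the smallest that 3 against 3 libraries allow.

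Top2a, on chromosome 11 at 98992943 to 99024189, went the other way. It held 1.13, 3.42 and 3.76 CPM in the KO libraries and 6.09, 4.20 and 5.81 CPM in the WT libraries, from 29 to 184 counts. Every WT library lay above every KO library, although KO3 and WT2 were close. Of its exon bases, 122 also belong to the small gene Gm23451 on the same strand. The log2 fold change was -0.94 (SE 0.60, 95% interval -2.22 to 0.35; unadjusted p of 0.140, adjusted p = 0.846, edgeR). Thus the 2 members with counts in all 6 libraries and no overlap between genotypes pointed in opposite directions.

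Among the cyclins, Ccna2 had the highest level and showed no separation. Its 97, 244 and 294 counts in KO and 253, 192 and 61 in WT correspond to 3.77, 7.32 and 10.5 CPM against 8.37, 6.90 and 1.98 CPM. The lowest library, WT3, and the highest, KO3, spanned 5.32-fold, and the log2 fold change was 0.34 (SE 0.55, 95% interval -0.85 to 1.52; adjusted p = 0.960, edgeR). Ccna2 lies on chromosome 3 at 36564865 to 36572150, and 510 of its exon bases also belong to Exosc9, a subunit of the RNA exosome on the opposite strand. Counting was without strand and reads over both genes counted for each, so Ccna2 can hold reads of Exosc9, which had 406 to 989 counts per library, lowest in KO3 and highest in WT3.

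Ccnb1, on chromosome 13 at 100778650 to 100786570, was listed at 0 in 4 libraries. It held 119 counts in KO3 and 94 in WT1, or 4.26 and 3.11 CPM, and 1 library per genotype therefore set both means. Runs of 50 bases of Ccnb1 transcripts occur in 6 other genes, most often in the pseudogenes Ccnb1-ps and Gm12856, which themselves held 0 counts in all 6 libraries, and how reads on these runs were assigned was not tested. Its log2 fold change was 0.36 with an interval from -2.80 to 3.51 (adjusted p = 0.991, edgeR). Ccnb2, on chromosome 9 at 70407692 to 70421547, held 25, 0 and 0 counts in KO and 17, 35 and 21 in WT. All 3 WT libraries had counts, and 1 of 3 KO libraries, KO1, lay between WT2 and the others, at 0.973 CPM. It did not pass the filter, and without the CPM filter its log2 fold change was -1.51 (SE 1.51; unadjusted p of 0.334, adjusted p = 0.904, edgeR).

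Cdk1, on chromosome 10 at 69335146 to 69352938, held 108, 0 and 0 counts in KO and 40, 11 and 69 in WT. As in Ccnb2, KO1 was the only KO library holding counts, but WT2, the highest WT library in Ccnb2, was the lowest in Cdk1. KO1 stood at 4.20 CPM, above all WT libraries (1.32, 0.395 and 2.24 CPM). The means of 1.40 ± 2.43 CPM and 1.32 ± 0.922 CPM (SD, n = 3 each) do not show this split, and the log2 fold change was -0.13 (SE 1.29; adjusted p = 0.995, edgeR). No annotated exon of another gene overlaps Cdk1, and no other transcript shares a run of 50 bases with it.

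The kinetochore genes differed from each other. Cenpe, a kinesin of 46 exons on chromosome 3 at 135212537 to 135273611, held 23, 20 and 0 counts in KO and 46, 72 and 72 in WT. In CPM these were 0.895, 0.600 and 0 against 1.52, 2.59 and 2.34, so that the groups did not overlap. The log2 fold change was -2.12 (SE 1.05, 95% interval -4.32 to 0.08; unadjusted p of 0.0582, adjusted p = 0.769, edgeR), the largest in size among the members tested. Bub1, the checkpoint kinase on chromosome 2 at 127801122 to 127831865, held 93 counts in KO3, 0 in KO1 and KO2, and 9, 1 and 0 in WT. KO3, at 3.33 CPM, thus held most of its counts. Without the CPM filter its log2 fold change was 3.20 with an SE of 2.33 (unadjusted p of 0.192, edgeR).

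Neither subunit of the chromosomal passenger complex separated the genotypes. Birc5, on chromosome 11 at 117849251 to 117855743, held 38, 0 and 33 counts in KO and 0, 27 and 0 in WT, with a log2 fold change of 1.40 (SE 1.67; adjusted p = 0.934, edgeR). It was 0.79 without WT1 or WT3, and without WT2 no WT library held counts. Stretches of 50 bases of Birc5 occur in transcripts of 184 other genes. Aurkb, on the same chromosome at 69045647 to 69051664, held 0, 32 and 45 counts in KO and 68, 0 and 89 in WT, with a log2 fold change of -1.01 (SE 1.13; adjusted p = 0.932, edgeR), which was -0.41 without WT3, -0.51 without KO1, -1.54 without WT2 and -1.71 without KO3. The libraries without Birc5 counts (KO2, WT1 and WT3) all held Aurkb, and those without Aurkb counts (KO1 and WT2) both held Birc5.

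**Figure D2:**
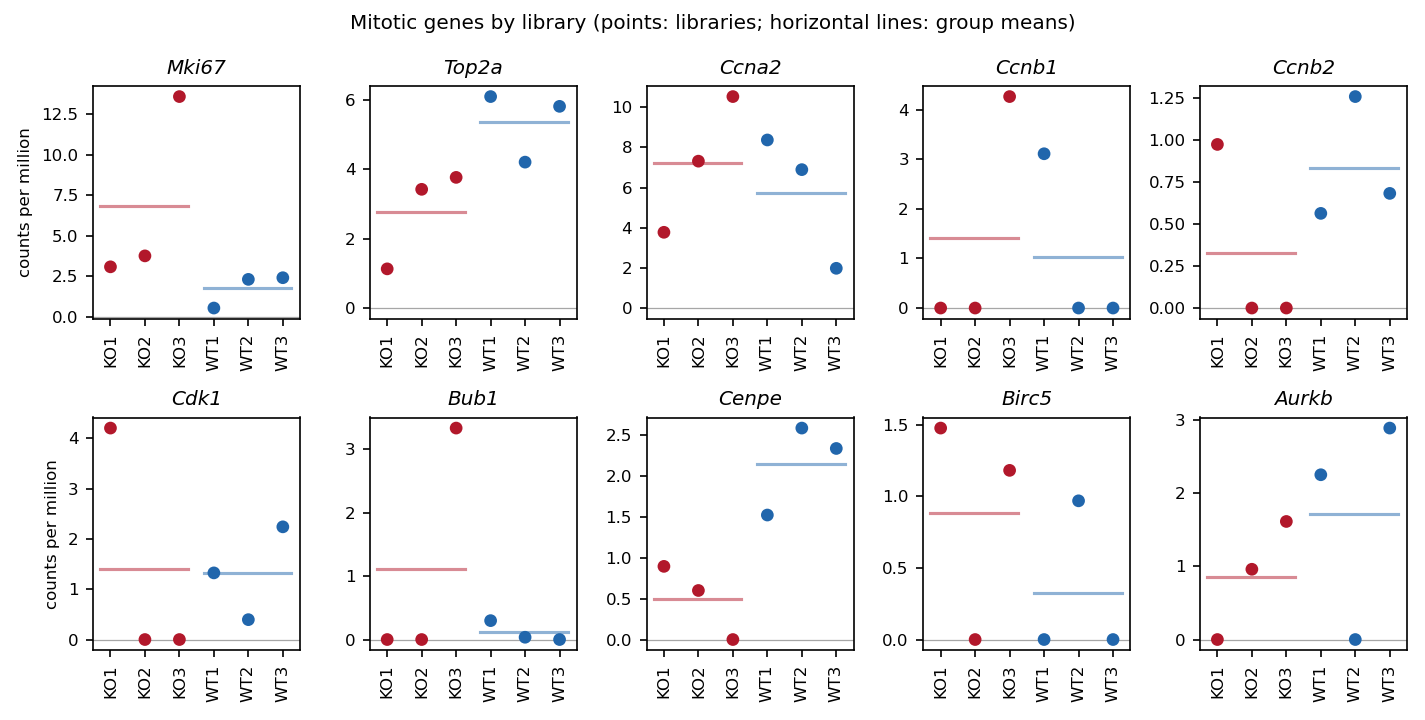
Level of each of the 10 mitotic genes in CPM (y axis, starting near 0, scale differs by gene) in each KO (red) and WT (blue) library, with horizontal lines at the group means. Mki67 in KO3 (13.6 CPM) is the highest value of any member, Top2a and Cenpe are lower in all KO than in all WT libraries, and 7 of 10 genes have at least 1 library at 0.

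Over the members as a whole, 1 of 8 tested passed an unadjusted p of 0.05, Mki67, which was higher in KO. Over all genes tested the share was 6.46% in either direction, 3.4% higher and 3.07% lower in KO, and 1 member is near that background. None of the 8 passed an adjusted p of 0.05 in edgeR, as against 0.00624% of all genes (1 gene). None did with DESeq2, limma voom or edgeR's likelihood ratio test either, where 57, 3 and 19 of 16017 genes did. The counts of members at an unadjusted p of 0.05 were 1, 0 and 1 with these tools, beside 840, 847 and 795 of 16017 genes. The groups did not overlap for Mki67 with KO above, and for Top2a and Cenpe with WT above, where 6.13% and 5.52% of all genes did so. Fold changes were above 0 for 4 and below for 4, with a median log2 fold change of 0.11, beside 0.01 over all genes tested.

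**Figure D3:**
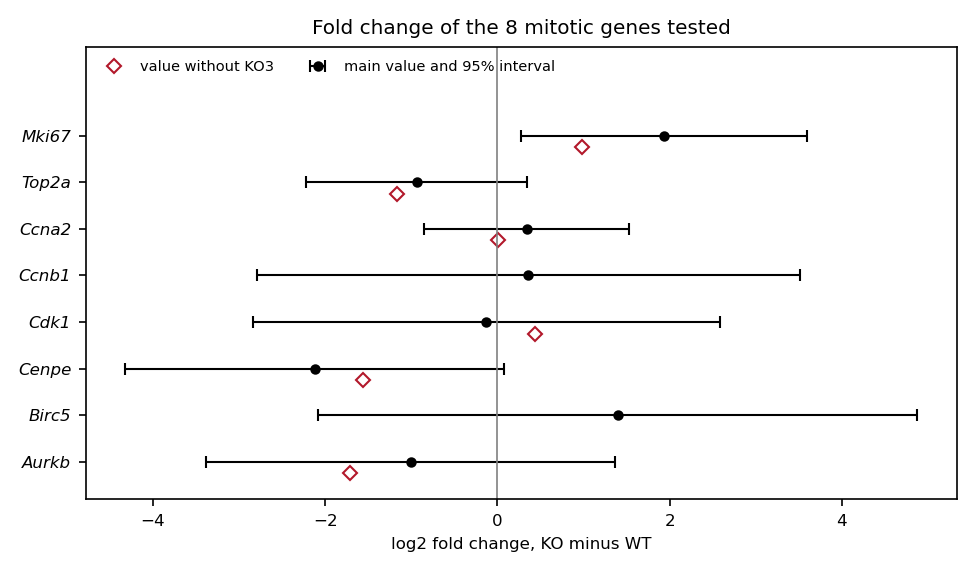
Log2 fold change of KO minus WT (x axis) for the 8 mitotic genes tested, as the fitted value with its 95% interval (black) and the value without KO3 (red diamonds, for the 6 genes that passed the filter without it). The interval of Mki67 alone leaves out 0, and without KO3 its value falls from 1.94 to 0.98.

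Zeros were common among the members beside counts well above 0. Of the 60 values (10 genes in 6 libraries), 17 were 0, 1 was 1 to 3 counts, 1 was 4 to 10 counts and 41 were over 10. A count of 0 allows up to 3 counts, or 0.0900 to 0.117 CPM in these libraries, for counting error alone, and Cdk1, Ccnb1, Bub1 and Aurkb each had another library of the same genotype at over 1.6 CPM. Of the 8 members tested, 5 had a library at 0 (62.5%), against 43.6% of 4793 tested genes whose mean counts lay in the same range, from 16.3 to 190. These 5 members had mean counts of 16.3 to 39, and the other members tested had 121 to 190. The compared genes were matched on the ends of the range only, so level was not held equal. The genes at 0 differed by library: Ccnb1, Bub1 and Aurkb in KO1, Cdk1, Ccnb1, Ccnb2, Birc5 and Bub1 in KO2, and Cdk1, Ccnb2 and Cenpe in KO3. In WT, Birc5 was at 0 in WT1, Ccnb1 and Aurkb in WT2, and Ccnb1, Birc5 and Bub1 in WT3.

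The members did not rise and fall as a block across libraries. Of their 45 pairs, 22 had a Pearson r above 0 over the 6 libraries on log2 CPM, with a median of -0.02, from -0.78 (Mki67 with Cenpe) to 0.92 (Ccnb1 with Bub1), as a description in sparse counts that share library and depth. The summed level of the 10 genes was 15.5, 16 and 38.3 CPM in KO and 24.1, 18.6 and 18.3 CPM in WT. KO3 was highest and the other KO libraries lowest, with a mean of 23.3 ± 13.0 CPM in KO and 20.3 ± 3.22 CPM in WT (SD, n = 3 each). The ratio of KO to WT was 1.14, and 0.776 without KO3. It was 0.886 with Mki67 left out of the sum, and 1.06 on RPKM. In KO3, Mki67 gave 35.5% of the members' counts, and Mki67, Ccna2, Ccnb1 and Bub1 each had their highest CPM there, while Cdk1, Ccnb2 and Cenpe were at 0.

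KO3 also stood apart in the markers of fibroblasts and myeloid cells. The sum of 6 fibroblast markers was 14538 CPM in KO3 and 7540 to 9533 CPM in the other 5 libraries, with 6 of 6 markers highest in KO3. The sum of 8 myeloid markers was 575 CPM in KO3 and 203 to 401 CPM elsewhere, with 5 of 8 highest in KO3. The 6 endothelial markers summed to 1564 CPM in KO3, 387 and 426 CPM in KO1 and KO2, and 1080 to 1446 CPM in WT, with 3 of 6 highest in KO3. In the endothelial sum KO3 was near the WT libraries, and KO1 and KO2 lay far below all others. None of these markers was at 0 in all libraries. Thus the library with the most Mki67 also had the most fibroblast, myeloid and endothelial marker RNA, and the part of these cell types in the values of Mki67 was not tested. Lymphoid and erythroid cells, which can divide, gave other orders. The 10 T cell and thymocyte markers summed to 1.56 to 5.33 CPM in KO and 5.39 to 9.12 CPM in WT, with Cd3e and Rag2 at 0 in all libraries. The 6 B cell markers summed to 0.570 to 3.97 CPM in KO and 0.718 to 4.90 CPM in WT. The 8 erythroid markers summed to 113 to 944 CPM in KO and 360 to 629 CPM in WT, highest in KO1.

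**Figure D4:**
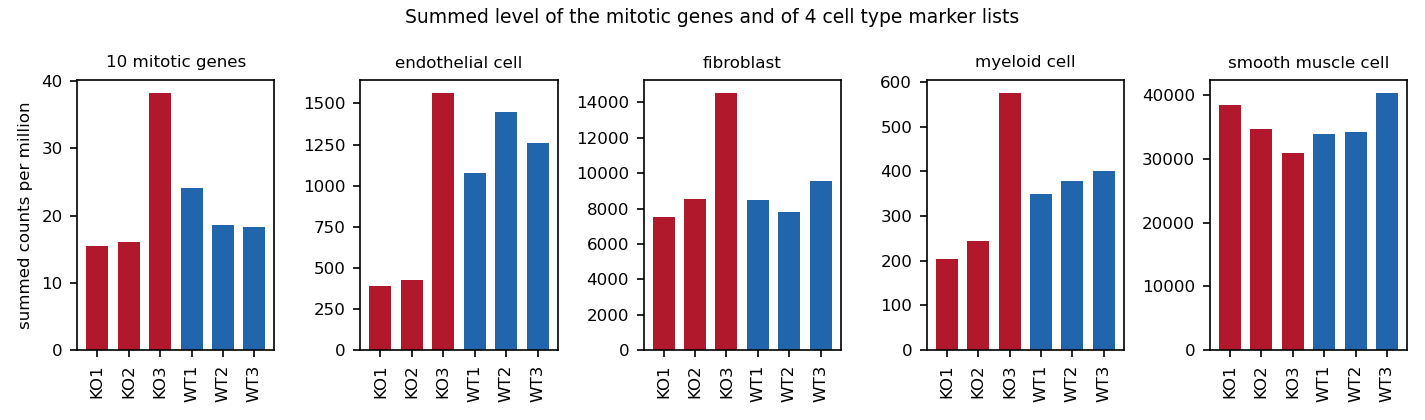
Summed CPM (y axes, from 0, scale differs by panel) of the 10 mitotic genes and of 4 cell type marker lists in each KO (red) and WT (blue) library. KO3 is highest in the mitotic genes (38.3 CPM) and in the endothelial, fibroblast and myeloid markers, and lowest in the smooth muscle markers (30933 CPM).

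The wider cell cycle was read through 8 lists of 119 other genes, of which 101 were tested and 3 (in the replication, kinetochore and regulator lists) had no counts in any library. In edgeR, 7 of the 101 passed an unadjusted p of 0.05 (6.93%, against 6.46% of all genes), 4 higher and 3 lower in KO, and none passed an adjusted p of 0.05. The fold changes were split evenly, with 51 above 0 and 50 below and a median log2 fold change of 0.02. Every KO library lay above every WT library for 9 of the 101 genes, beside 6.13% of all genes tested, and the reverse held for 6, beside 5.52%.

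The DNA replication list was expressed well above the members, at a median of 1.51 RPKM, and none of its 27 genes tested passed an unadjusted p of 0.05, with 15 fold changes above 0 and 12 below. Mcm2, a subunit of the replicative helicase, held 262, 323 and 602 counts in KO and 161, 202 and 281 in WT, with a log2 fold change of 0.90 (SE 0.44; unadjusted p of 0.0586, adjusted p = 0.769, edgeR). It was highest in KO3, as Mki67 was. Another subunit of the same helicase, Mcm6, was lowest in KO3, with 853 counts against 1466 to 1878 in the other libraries, and its log2 fold change was -0.45 (SE 0.23). The list was led in level by Gins4, a helicase cofactor, at 13.5 RPKM and by Pcna, the sliding clamp of DNA polymerases, at 11.8 RPKM. Pcna had a log2 fold change of -0.52 (SE 0.27; adjusted p = 0.781, edgeR).

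The kinetochore and spindle checkpoint list had 9 of 14 genes tested and none at an unadjusted p of 0.05. Its smallest p belonged to Sgo1, the protector of centromeric cohesion, with 34, 0 and 62 counts in KO and 0 in every WT library. Its KO mean was 11.6-fold higher than the level that 3 counts per library allow in WT, which covers counting error alone. KO2 was at 0 like the WT libraries. The interval of the log2 fold change, from -0.06 to 16.1, included 0 (unadjusted p of 0.0516, adjusted p = 0.769, edgeR). With all WT libraries at 0, that fold change depends on the prior count and is no measure of size. Spc24, a subunit of the NDC80 complex, held 15, 0 and 0 counts in KO and 12, 41 and 45 in WT. The best expressed were Zwint and Bub3, at 11.6 and 9.15 RPKM, with log2 fold changes of 0.13 and 0.26.

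The spindle and cytokinesis list had 17 of 19 genes tested. In edgeR, 1 was higher and 2 lower in KO at an unadjusted p of 0.05, beside 3.4% and 3.07% of all genes tested. Anln, which encodes the actin-binding cytokinesis protein anillin, held 88.3, 110 and 95.7 CPM in KO and 129, 138 and 164 CPM in WT, a log2 fold change of -0.57 (SE 0.17; unadjusted p of 0.0038, adjusted p = 0.731, edgeR). At 13.3 RPKM its level was far above that of the members, and its groups did not overlap. Kif23, a kinesin of the central spindle, held 0 counts in all KO libraries and 43, 109 and 7 in WT. Its WT mean was 17.7-fold above the level that 3 counts per library allow in KO, which covers counting error alone. WT2, at 3.91 CPM, raised that mean, while WT3 was at 0.227 CPM. The interval of the log2 fold change ran from -16.1 to -1.36 (unadjusted p of 0.0237, adjusted p = 0.736, edgeR). With all KO libraries at 0, this fold change depends on the prior count and is no measure of size. Kif20a, a further kinesin of cytokinesis, went the other way, with 14.5, 16.7 and 12.6 CPM in KO and 7.68, 11.5 and 5.55 CPM in WT (log2 fold change 0.83, SE 0.38; adjusted p = 0.756, edgeR). Its exons overlap those of Cdc23 on the opposite strand, which held 1653 to 2115 counts per library.

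The list of mitotic kinases, phosphatases and the anaphase-promoting complex had 10 of 13 genes tested. At an unadjusted p of 0.05 in edgeR, 2 were higher and 1 lower in KO, beside 3.4% and 3.07% of all genes tested. Ube2c, the ubiquitin-conjugating enzyme of that complex, held 210, 222 and 0 counts in KO and 39, 25 and 29 in WT (log2 fold change 2.23, SE 0.93; adjusted p = 0.736, edgeR). Its exons overlap on the opposite strand those of Tnnc2, which encodes troponin C of fast skeletal muscle and held 183, 160 and 0 counts in KO and 0, 19 and 0 in WT. The 6 skeletal muscle markers summed to 30.5 and 88.8 CPM in KO1 and KO2 and 3.18 to 11.1 CPM in the other 4 libraries. These 2 libraries also held most Ube2c. The part of Tnnc2 reads or of skeletal muscle in the values of Ube2c was not tested. Nek2, a centrosomal kinase, held 9, 0 and 0 counts in KO and 36, 56 and 29 in WT (log2 fold change -3.68, SE 1.66; adjusted p = 0.755, edgeR). Fzr1, which activates the complex in G1, held 31.9 to 35.6 CPM in KO and 15.4 to 28.4 CPM in WT (log2 fold change 0.57, SE 0.26; adjusted p = 0.768, edgeR), and its exons overlap Mfsd12 on the opposite strand. Pttg1, or securin, was the best expressed at 11.5 RPKM, with a log2 fold change of -0.02.

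The condensin and cohesin list, with 8 of 9 genes tested, had none at an unadjusted p of 0.05. Smc1a and Smc2, core subunits of cohesin and condensin, had log2 fold changes of -0.39 (SE 0.18) and -0.77 (SE 0.37), and Rad21, the best expressed cohesin subunit at 26.8 RPKM, of 0.02. The list of G1 cyclins and kinases held the most abundant gene of the 8 lists. Ccnd2, or cyclin D2, reached 37.0 RPKM and Cdk4, its kinase partner, 24.5 RPKM, with log2 fold changes of 0.10 (SE 0.14) and 0.22 (SE 0.17). Cdk6 held 36.4, 33 and 25.9 CPM in KO and 20.8, 18.8 and 20.9 CPM in WT (log2 fold change 0.64, SE 0.25, unadjusted p of 0.0226, adjusted p = 0.736, edgeR). It was the 1 gene of 8 tested in this list at an unadjusted p of 0.05, beside 6.46% of all genes tested. Cdc25a, the phosphatase that activates CDK2, had a log2 fold change of 0.66 (SE 0.34), and 3 of the 8 genes tested in this list had every KO library above every WT library, beside 6.13% of all genes tested.

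The CDK inhibitors, which hold cells in rest, had a median of 6.81 RPKM against 0.335 RPKM for the members. None of the 6 tested passed an unadjusted p of 0.05. Cdkn1a (p21), at 23.9 RPKM, had a log2 fold change of 0.16 (SE 0.24), Cdkn1b (p27) of -0.09 (SE 0.20) and Cdkn1c (p57) of -0.25 (SE 0.27). Of the E2F, RB, DREAM and MYB-FOXM1 regulators, 16 of 19 were tested and none passed an unadjusted p of 0.05. E2f5, a repressor E2F, held 16.4 ± 1.98 CPM in KO and 10.02 ± 4.21 CPM in WT (SD, n = 3 each; log2 fold change 0.70, SE 0.37; adjusted p = 0.788, edgeR). E2f7, itself a target of the cycle, held 16, 0 and 0 counts in KO and 36, 10 and 34 in WT. Rbl2 and E2f4, members of the DREAM repressor of resting cells, were the best expressed at 14.2 and 11.4 RPKM, with log2 fold changes of -0.19 (SE 0.15) and -0.28 (SE 0.28).

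Of the 29 list genes named, 12 have exons that overlap a gene on the opposite strand (Ccnd2, Cdk4, Cdk6, Cdkn1a, Cdkn1c, E2f5, E2f7, Fzr1, Kif20a, Nek2, Rbl2 and Ube2c), and their counts are uncertain to the extent that the neighbour was transcribed. Gm38037, the neighbour of Nek2, held 0 counts in all 6 libraries. Gm17590, the neighbour of Cdk6, held 33 counts in WT1 and 0 in the other 5 libraries. Reads over both genes counted for each, so Nek2 held none from shared exons and Cdk6 at most 33, in WT1.

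The pattern of the members over the 6 libraries, taken as the mean of their scaled log2 CPM, was lowest in KO2 and KO1 and highest in WT1 and KO3. The 10 other tested genes most like it by Pearson r over 6 libraries, from 0.981 to 0.995, were Gars, Csgalnact2, Nkx6-1, Pet117, Utp20, Fgd3, Chst7, F2rl1, Bicd2 and Ifrd1. None of them is in the cell cycle lists. Gars, a glycyl-tRNA synthetase, ran from 55.6 CPM in KO2 to 83.2 CPM in KO3. An r over 0.9 was reached by 190 of 16009 genes compared and by 1 of the 101 cell cycle genes. With 6 libraries and so many genes, high values of r are common, and the ranking is a description only.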

How the data were processed

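RNA of aortic vessels of 3 KO and 3 WT mice was sequenced with TruSeq libraries. The authors aligned reads with STAR to mm10 and deposited raw counts per gene from featureCounts 1.6.4 (GENCODE M21 per the file headers, while the study's methods name another release), over exons, without strand, a read overlapping exons of more than 1 gene counting for all of them. The deposited table also gives each gene's exon length, used for RPKM. A second deposited table of log2 values, p-values and fold changes from the authors' own comparison was not used.

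Counts were fitted in R 4.3.3 with edgeR 4.0.16 (glmQLFit and glmQLFTest, TMM factors, prior count 0.125) over the 16017 genes that summed to 2 counts or more and exceeded 1 CPM in 2 or more libraries; adjusted p are Benjamini-Hochberg. Ccnb2 and Bub1 were fitted without the CPM filter. Alternatives used DESeq2 1.42.0, limma 3.58.1 voom and others. The code was tested on simulated data. CPM values use plain library totals. Exact permutation tests were two-sided. The members, lists and alternatives were chosen with earlier results of these data known. Named genes were the members; in each list those with adjusted p under 0.05, otherwise the 2 with the smallest p and the 2 with the highest mean RPKM; and the 10 genes most like the members. Genes overlapping or sharing sequence with these were added after their values were seen. Since the labels do not say how replicates were prepared, p-values measure the spread between these libraries. Sequences are from RefSeq and GENCODE M21.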

Additional observations from a re-analysis of the deposited data

How the results depend on the processing

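The count of members at an unadjusted p of 0.05 (1 in the report) was 0 with limma voom, 2 with filterByExpr and 2 without KO2 and WT2. Leaving out 1 library gave 0 (without KO3 or WT1) to 2 (without KO1). The member added to Mki67 was Cenpe with filterByExpr, Cdk1 without KO1 and Birc5 without KO2 and WT2. For Cdk1 and Birc5 a whole group was then at 0. The count at an adjusted p of 0.05 was 0 in all 15 alternatives. Over all genes, the count at an unadjusted p of 0.05 (1035) was 607 without KO2 and WT2 and 686 (without WT3) to 1692 (without KO3) leaving out 1 library; at an adjusted p of 0.05 (1) it was 57 with DESeq2, 19 with edgeR's likelihood ratio test, 3 with limma voom, 0 without KO2 and WT2, and 0 to 82 leaving out 1 library, the highest without KO3. Cell cycle genes outside the members (7) numbered 4 (without WT1) to 9. The log2 fold change of Cdk1 turned to 0.082 with DESeq2, 0.079 with edgeR's likelihood ratio test, was -3.61 with limma voom, and was 0.17 in the fit of 4 libraries without KO2 and WT2; leaving out 1 library it ran from -8.35 to 0.57, the lowest without KO1, where all KO libraries were at 0 and the value is no measure of size. That of Ccnb1 ran from -0.25 to 1.05, that of Ccna2 from -0.086 to 0.72, that of Aurkb from -1.71 to -0.41 and that of Birc5 from 0.79 to 7.60. These ranges lack Ccnb1 without KO3 or WT1, the libraries that hold all its counts, and Birc5 without KO1 or KO3. In those fits the gene failed the filter. Without KO2 and WT2 Birc5 was at 8.25. The highest 2 values of Birc5 are from fits with all WT libraries at 0 and are no measure of size. The cause of these changes was not tested beyond the libraries left out. The fit with the trended dispersions of estimateDisp was added after the data were seen. No paired analysis was possible because the replicate numbers only name libraries in accession order. With 16.3 to 190 counts per member and library on average, the 95% intervals of the log2 fold changes of the 8 members tested were 2.37 to 6.96 wide.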
